A study of Mus musculus with 4 samples.

Results

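Monocytes and macrophages are set apart by a small number of transcription factors, and 9 of them were followed here by name in spleen cells of mice with and without granulocyte macrophage-colony stimulating factor (GM-CSF): Nr4a1, Klf2, Cebpa, Cebpb, Cebpe, Maf, Pparg, Nr1h3 and Spic. The genes were chosen as a list and not by a measured value, and they are 9 of the 27998 genes of the RNA table. A UMI, or unique molecular identifier, marks 1 captured transcript. Levels are raw UMI counts summed over all cells of a group and given per 1000000 UMIs of that group (CPM).

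Classical monocytes, which carry much Ly6C on their surface, leave the bone marrow for blood and spleen, and part of them become non-classical monocytes with little Ly6C. NR4A1 is an orphan nuclear receptor that non-classical monocytes need, and C/EBP-beta and KLF2 are known to act upstream of it, while C/EBP-alpha commits progenitors to the granulocyte and monocyte line and C/EBP-epsilon drives the making of secondary granules in maturing neutrophils. SPI-C marks the red pulp macrophages of the spleen, which break down aged red cells and recycle their iron. LXR-alpha (Nr1h3) and PPAR-gamma (Pparg) are nuclear receptors that switch on cholesterol and lipid genes in macrophages, and c-MAF (Maf) is a bZIP factor of differentiated macrophages.

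CD11b+ splenocytes were sorted by flow cytometry from GM-conditioned mice and from mice left in the steady state, and their transcripts were counted in single cells together with antibody tags for surface proteins (CITE-seq). The GM-conditioned mice had received 3 once-daily injections of 10 µg of GM-CSF, subcutaneous in the study's methods, and their cells were taken 24 h after the last one. The steady-state group had 0 injections. Neither strain, age nor number of mice is given in the labels of these libraries. Each condition is 1 RNA library, so condition and library cannot be told apart, no test between conditions was possible, and every interval below is a 95% interval that covers counting error only.

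The steady-state library held 4827 cells and 22358903 UMIs (median 3371 per cell) and the GM-conditioned library 6804 cells and 35007567 UMIs (median 4916), and 8 cell barcodes occurred in both. Of these cells, 2135 and 3940 belong to the deposited table of monocytes, macrophages and dendritic cells (DCs), called the MoMacDC bundle, with its own clusters numbered 0 to 16. In the steady state all 8 of the tested markers of classical monocytes were at least 2-fold lower in bundle cluster 4 than in bundle cluster 5, and 8 of the 9 tested markers of non-classical monocytes were at least 2-fold higher. Cluster 4 is therefore called the non-classical and cluster 5 the classical cluster. All 10 red pulp macrophage markers were detected in the cells annotated as macrophages in both libraries, at a summed 28840 CPM and 28250 CPM. The label cDC2-A did not hold: all 6 natural killer cell markers were present there, at a summed 18480 CPM in the steady state against 256 CPM for the 6 markers of conventional and progenitor DCs, so these cells are named only by their label.

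By the GENCODE annotation of GRCm38 (mm10), Nr4a1 (ENSMUSG00000023034) lies at chr15:101254269-101274795 on the plus strand, Klf2 (ENSMUSG00000055148) at chr8:72319033-72321656 on the plus strand, Cebpb (ENSMUSG00000056501), a gene of 1 exon, at chr2:167688915-167690418 on the plus strand and Cebpa (ENSMUSG00000034957) at chr7:35119293-35121928 on the plus strand. Cebpe (ENSMUSG00000052435) lies at chr14:54710360-54712174 on the minus strand, Maf (ENSMUSG00000055435) at chr8:115682942-115707794 on the minus strand and Pparg (ENSMUSG00000000440) at chr6:115360951-115490399 on the plus strand. Spic (ENSMUSG00000004359) lies at chr10:88674772-88685015 and Nr1h3 (ENSMUSG00000002108) at chr2:91184061-91202834, both on the minus strand. Annotated genes overlap Cebpa, Cebpb, Maf, Pparg and Nr1h3, on the opposite strand except Gm13783 at Nr1h3.

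Nr4a1, Cebpb and Klf2 were the factors that stood lower in the GM-conditioned library beyond counting error in most cell types (12, 10 and 7 of 12). The 250 bases before a RefSeq transcript start of each are therefore shown beside those of Cebpa, whose level in the bundle differed by less than 2-fold. Capitals mark the half-site of the cAMP response element, TGACG or, on the other strand, CGTCA, through which CREB and related factors bind; this motif was picked after the sequences had been seen. The sequences are from RefSeq (GRCm38.p6), which had a promoter window for 7 of the 9 genes. RefSeq starts can differ from the GENCODE starts given above: the Nr4a1 window lies inside the GENCODE gene, and the Klf2 window runs past the GENCODE start.

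Nr4a1 (chr15:101266596-101266845, plus strand): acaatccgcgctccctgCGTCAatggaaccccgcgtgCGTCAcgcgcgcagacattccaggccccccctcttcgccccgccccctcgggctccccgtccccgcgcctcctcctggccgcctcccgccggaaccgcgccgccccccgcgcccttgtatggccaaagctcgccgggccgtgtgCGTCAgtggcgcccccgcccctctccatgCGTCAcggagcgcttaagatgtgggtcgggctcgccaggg
Cebpb (chr2:167688665-167688914, plus strand): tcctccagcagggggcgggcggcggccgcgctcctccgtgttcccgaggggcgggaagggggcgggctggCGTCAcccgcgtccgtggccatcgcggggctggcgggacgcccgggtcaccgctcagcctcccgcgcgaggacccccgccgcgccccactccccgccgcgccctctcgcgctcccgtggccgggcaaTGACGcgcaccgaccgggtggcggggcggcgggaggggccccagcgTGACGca
Klf2 (chr8:72318812-72319061, plus strand): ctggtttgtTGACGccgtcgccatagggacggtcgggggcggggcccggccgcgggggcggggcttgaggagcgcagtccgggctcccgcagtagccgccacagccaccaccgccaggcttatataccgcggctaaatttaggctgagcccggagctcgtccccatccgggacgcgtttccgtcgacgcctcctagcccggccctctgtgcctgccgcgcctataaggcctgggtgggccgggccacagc
Cebpa (chr7:35119043-35119292, plus strand): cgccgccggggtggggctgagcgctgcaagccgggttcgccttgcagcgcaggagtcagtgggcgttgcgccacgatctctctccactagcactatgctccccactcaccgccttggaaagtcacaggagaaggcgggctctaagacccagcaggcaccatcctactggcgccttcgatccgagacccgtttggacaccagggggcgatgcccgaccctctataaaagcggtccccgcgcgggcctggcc

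These 250 bases held 4 half-sites at Nr4a1, 3 at Cebpb, 1 at Klf2 and 0 at Cebpa. The 3 windows of Pparg, the 2 of Nr1h3 and the 1 of Spic also held 0, although Pparg and Nr1h3 were at least 2-fold lower in the bundle as well. Of all 32851 promoter windows cut to the same length, 17.8% held at least 1, 0.688% at least 3 and 0.137% at least 4. The full element, TGACGTCA, was in none of the 4 sequences and in 1.55% of all windows. The C/EBP letters TTGCNNAA or TTNNGCAA were also in none of the 4, against 9.56% of all windows, and 1 window of Pparg held 2. G and C made up 74.4% of the Nr4a1, 81.6% of the Cebpb, 71.2% of the Klf2 and 66.4% of the Cebpa sequence. The half-site itself holds a CG, and the shares over all windows were not matched for G and C content. A match of letters is a description and not a bound site.

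In the steady state Nr4a1 was highest in MoMacDC_c5, the cell type of the whole-library annotation that corresponds to the non-classical cluster, at 1352 CPM (1303 to 1402). Activated DCs (549 CPM, 8 cells) and MoMacDC_c1, which holds the classical monocytes (509 CPM), came next with overlapping intervals, and Progenitor DC (408), MoMacDC_c2 (383), Macrophage (363) and B cell (331) formed a group whose neighbours did not differ beyond counting error. Granulocyte (174 CPM), cDC2-A (136), T cell (109), MoMacDC_c4 (100) and Neutrophil (73.3) were lowest. Nr4a1 was seen in 96.5% of MoMacDC_c5 cells at a median of 3763.5 UMIs per cell and in 82.8% of MoMacDC_c1 cells at 7322. With every cell thinned to 1000 UMIs these shares were 71.3% and 36.3%, and 4.11% for neutrophils, whose unthinned share was 19.2% at a median of 6461.5 UMIs.

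Cebpb and Klf2 were spread more widely. Cebpb was highest in MoMacDC_c5 (3197 CPM), then in Granulocyte (2148) and MoMacDC_c1 (1793), and lowest in cDC2-A (159.6 CPM). Klf2, also known as a factor of resting lymphocytes, stood at 1568 CPM in Granulocyte, 1350 in B cell, 1291 in MoMacDC_c5, 1195 in cDC2-A and 990.5 in T cell, with overlapping intervals for B cell and MoMacDC_c5. Its lowest steady-state level was 241 CPM, in Neutrophil. Cebpa lay mainly in the bundle, at 118 CPM in MoMacDC_c1 and 95.2 in MoMacDC_c2 against 33.9 in MoMacDC_c5, 18.8 in Granulocyte and 20.2 in Neutrophil.

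**Figure D1:**
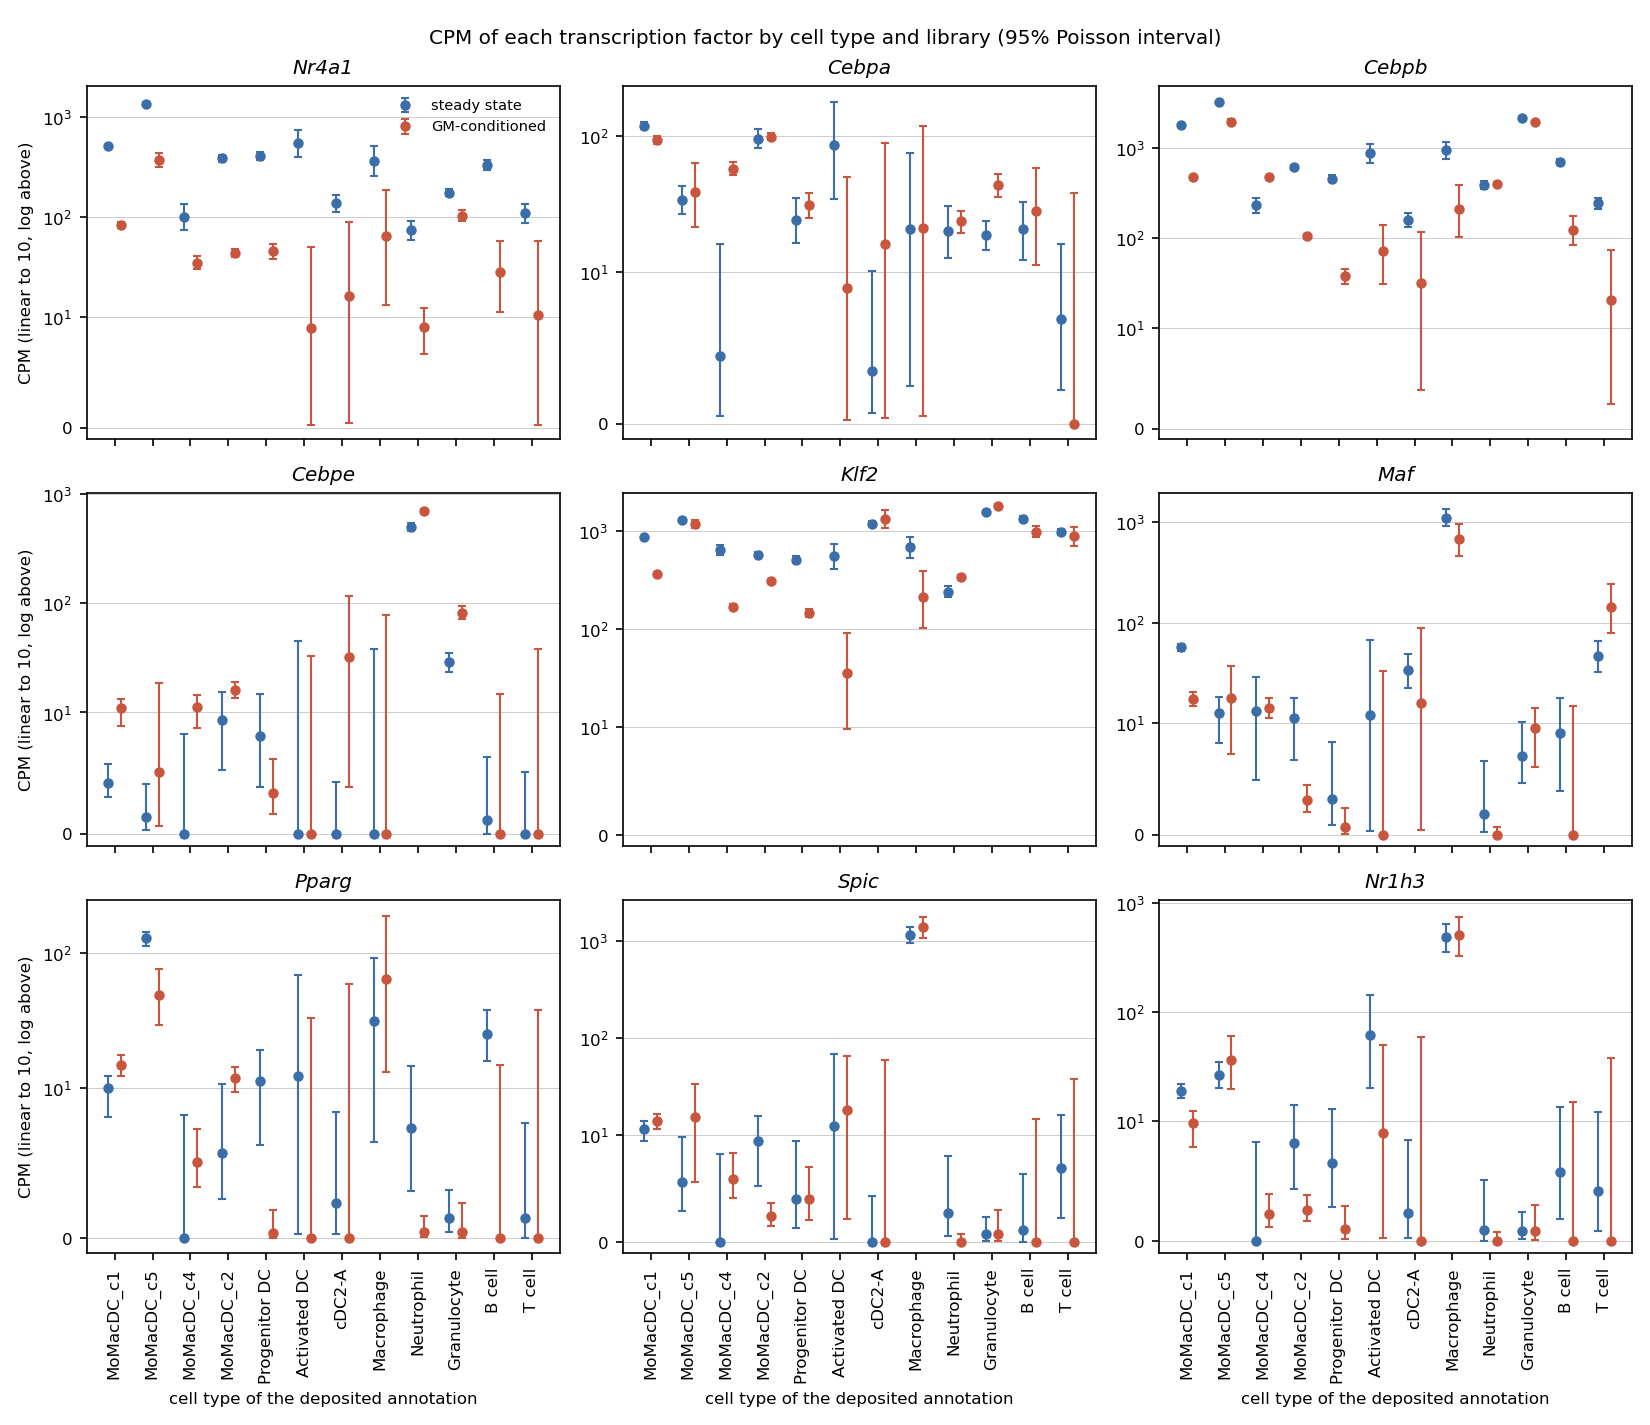
CPM of each of the 9 factors by cell type of the deposited annotation, with 95% counting intervals, in the steady-state and the GM-conditioned library (1 each); the axis is linear to 10 CPM and logarithmic above. Nr4a1 lies lower in the GM-conditioned library in all 12 cell types, Cebpe stands out in Neutrophil at 502 and 698 CPM, and Spic in Macrophage at 1152 and 1397 CPM.

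The cluster labelled Granulocyte also carried the neutrophil genes S100a8 and S100a9, at 42190 and 50840 CPM in the steady state. Its steady-state level of the granule genes Ngp and Camp was 23.1 and 9.80 CPM, against 36220 and 38290 CPM in Neutrophil. Both labels thus hold cells with neutrophil genes, and the neutrophils counted here are the cells labelled Neutrophil. Cebpe lay mainly in that cluster. The Neutrophil cluster held 85.1% of all its UMIs over both libraries (84.1% to 86.1%), and 10.5% of the UMIs of all genes. Its level there was 502 CPM in the steady state and 698 CPM in the GM-conditioned library, and the Granulocyte cluster stood at 28.9 and 82.1 CPM. Cebpe was seen in 74.0% and 74.8% of neutrophils (29.4% and 37.3% after thinning), against 0.51% of steady-state B cells (median 2976.5 UMIs). It had 0 UMIs in steady-state T cells, where 3 UMIs would be 4.13 CPM. Set against Granulocyte, Neutrophil was 17.3-fold higher for Cebpe in the steady state (14.1 to 21.6) and 8.48-fold in the GM-conditioned library (7.37 to 9.86). It was the 1 factor of 5 tested that was at least 2-fold higher, where 13.6% (steady state) and 14.9% (GM-conditioned) of all tested genes were. Nr4a1, Cebpb and Klf2 were at least 2-fold lower in both libraries, where 27% and 25.4% of all tested genes were. Of 9 granule genes known as targets of C/EBP-epsilon, 8 were at least 2-fold higher in Neutrophil in either library, with a median ratio of 26.4 and 10.5, among them Camp, which encodes cathelicidin, and Ltf, which encodes lactoferrin. These clusters were built from the same RNA counts, so the differences between clusters here and below are descriptions.

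Spic, Nr1h3 and Maf peaked in the macrophages, which were only 25 cells in the steady state against 22 in the GM-conditioned library. Spic stood at 1152 CPM (948 to 1387) and 1397 CPM (1080 to 1777) from 111 and 66 UMIs, in 22 of the 25 and 16 of the 22 cells. Nr1h3 stood at 488 and 508 CPM from 47 and 24 UMIs, and Maf at 1111 and 677 CPM from 107 and 32 UMIs. For all 3 genes the intervals of both libraries overlapped, if barely for Maf (910 to 1342 and 463 to 956). Such overlap does not show equal levels, and the interval of the Maf ratio between the libraries lay below 1.

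Against the bundle, the macrophages were 122-fold higher for Spic (94.4 to 158), 28.9-fold for Nr1h3 (20.5 to 39.2) and 27.8-fold for Maf (22.4 to 34.1) in the steady state. In the GM-conditioned library these ratios were 196 (145 to 259), 101 (61.4 to 153) and 68.4 (45.2 to 97.5), and Pparg, with 3 UMIs in the macrophages, was also past 2-fold (6.98, 1.23 to 17.7). Of all tested genes, 22.8% were at least 2-fold higher in the macrophages in the steady state against 35.8% in the GM-conditioned library. The counts added to each sum raise these shares, since the macrophages held few UMIs. In the GM-conditioned library Maff (0 against 88 UMIs, ratio 3.239) and Vdr (0 against 96 UMIs, 2.97) counted as higher. The shares are therefore not a measure of how many genes stood higher in the macrophages. Cebpa was at least 2-fold lower in the macrophages of both libraries, at 2 UMIs (ratio 0.280, 0.0271 to 0.812) in the steady state and 1 UMI (0.398, 0.00672 to 1.48) in the GM-conditioned library, where 15.1% and 13.6% of all tested genes were lower. The SPI-C and iron recycling list, which includes Hmox1, the heme-degrading enzyme, and Slc40a1, the iron exporter ferroportin, had 7 and 8 of its 8 genes at least 2-fold higher, with medians of 7.41 and 13.2. Of 12 tested PPAR and LXR targets, 5 and 8 were at least 2-fold higher, with Abca1, the cholesterol exporter, at 208 CPM against 9.5 in the steady state.

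Macrophages held 33.5% of all Spic UMIs (29.4% to 37.7%) although they were 0.404% of the cells. The bundle held Spic at only 9.43 and 7.16 CPM, and its cluster 2 carried 48.9% of those UMIs in the steady state against 33.0% in the GM-conditioned library, with 14.6% and 7.33% of all bundle UMIs. In cluster 2 of the steady state 52 of 307 cells had Spic, at a median of 7326.5 UMIs against 6694 in the others. C1qa, a complement gene of macrophages, stood at 81.6 CPM in the Spic-positive and 3.97 CPM in the Spic-negative cells there, and at 3021 CPM in Spic-positive macrophages. C1qb (48.01 against 6.806 CPM) and Hmox1 (139.2 against 69.76 CPM) were also higher in these Spic-positive cells. Vcam1, another macrophage marker, stood at 2.4 against 3.97 CPM (1 and 7 UMIs), and Slc40a1 at 2.4 against 3.403 CPM (1 and 6 UMIs). In cluster 2 of the GM-conditioned library the order was the opposite for C1qa, with 0 UMIs in the 35 Spic-positive cells against 11.6 CPM in the others. C1qb (3.873 against 17.37 CPM) and Vcam1 (3.873 against 8.686 CPM) were also lower in those Spic-positive cells. Hmox1 (166.5 against 94.97 CPM) and Slc40a1 (54.22 against 9.265 CPM) were higher. The other bundle clusters of that library held 106 Spic-positive cells. C1qa (14.11 against 1.361 CPM), C1qb (19.99 against 4.865), Vcam1 (4.703 against 2.804), Hmox1 (283.4 against 32.45) and Slc40a1 (28.22 against 7.092) were higher in them. In the 57 such cells of the steady state C1qa and C1qb had 0 UMIs, while Vcam1, Hmox1 and Slc40a1 were higher. The share of Spic-positive cells in Granulocyte was 0.155% at a median of 1770 UMIs, and no Spic UMI was found in the 893 neutrophils of the GM-conditioned library, where 3 UMIs would be 0.608 CPM.

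The comparison of the non-classical with the classical cluster asks which of the factors differ between both kinds of monocyte. In the steady state (460 and 442 cells) Nr4a1 stood at 1390 CPM in the non-classical and 635 CPM in the classical cluster, a ratio of 2.19 (2.07 to 2.32), and Pparg at 131 and 6.75 CPM, a ratio of 19.0 (12.7 to 31.2). In the opposite direction Cebpa stood at 39.7 and 127 CPM, a ratio of 0.314 (0.241 to 0.398), and Maf at 14.9 and 66.3 CPM, a ratio of 0.229 (0.148 to 0.333). The non-classical cluster was thus high in both nuclear receptors and low in C/EBP-alpha and c-MAF. These were the 2 factors past 2-fold upwards and the 2 downwards among 7 with at least 50 UMIs over both clusters, where 6.07% of 7546 tested genes were at least 2-fold higher and 6.11% at least 2-fold lower.

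Cebpb (3143 against 2100 CPM, ratio 1.497), Klf2 (1276 against 1034 CPM, 1.23) and Nr1h3 (27.8 against 16.4 CPM, 1.70) were higher by less than 2-fold, each with an interval above 1. Spic (13 and 11 UMIs) and Cebpe (1 and 13 UMIs) were below the minimum. Cells of the non-classical cluster were shallower, at a median of 3636 UMIs against 7494. After thinning to 1000 UMIs, Pparg was seen in 14.9% of non-classical and 0.226% of classical cells (39.1% and 4.98% before), and Nr4a1 in 71.6% and 41.9% (95.9% and 92.1% before). The thinned Pparg ratio was 49.2 from 76 UMIs against 1, with an interval of 12.8 to 2935. Maf was seen in 1.53% and 7.24% (4.78% and 30.5% before) and Cebpa in 3.49% and 9.73% (13.3% and 53.4% before). For comparison, Pparg was seen in 0.575% of T cells and 0.259% of Granulocyte cells in the steady state, before thinning.

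**Figure D2:**
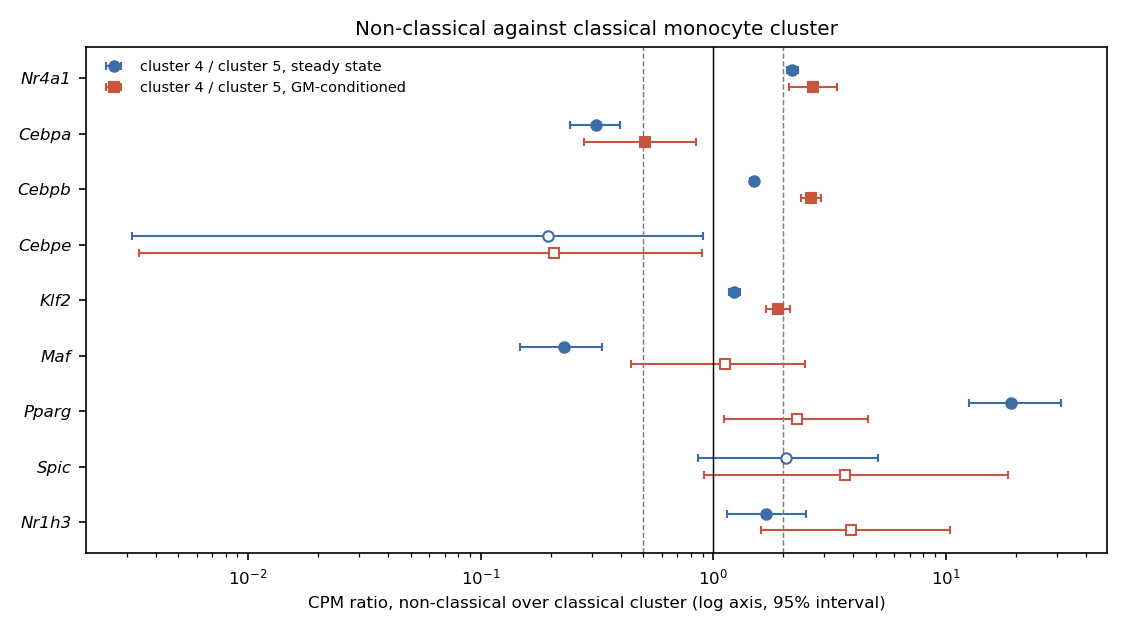
CPM ratio of each factor, non-classical cluster over classical cluster of the bundle, on a log axis with 95% counting intervals for both libraries; open symbols are genes with fewer than 50 UMIs over both clusters, and dashed lines mark 2-fold either way. Pparg lies farthest to the right in the steady state (19.0) and at 2.29 in the GM-conditioned library, and Maf and Cebpa lie left of 1 in the steady state.

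The PPAR and LXR target list went the way of Pparg in the steady state: 5 of 11 tested genes were at least 2-fold higher in the non-classical cluster and 1 was lower, with a median ratio of 1.79 against 1.06 for all tested genes. Higher were Fabp4, a fatty acid binding protein (35.4-fold, 27.0 to 48.1), Cd36, a scavenger receptor for lipids (17.6-fold), Abca1 (6.73-fold), Mylip, which degrades the LDL receptor (4.23-fold), and Abcg1, another cholesterol exporter (3.31-fold). Srebf1 was lower at 0.445. In the other lists fewer genes passed 2-fold. Klf4, a factor also known from non-classical monocytes, was the 1 of 6 other KLF genes (2.10), and Rxra, the partner of PPAR and LXR receptors, was the 1 of 6 other nuclear receptors that was lower (0.455). Of 9 other myeloid factors Pou2f2 was higher (2.54), while Batf3 and Mitf were lower.

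In the GM-conditioned library the same comparison rested on 139 and 141 cells, and 4 factors had 50 UMIs. Nr4a1 stood at 370 against 138 CPM (ratio 2.68, 2.11 to 3.41) and Cebpb at 1918 against 729 CPM (2.63, 2.37 to 2.92), and both were past 2-fold, where 5.63% of 3994 tested genes were at least 2-fold higher and 4.61% at least 2-fold lower. Klf2 stood at 1194 against 628 CPM (1.90) and Cebpa at 43.1 against 86.3 CPM (0.511). Pparg stood at 43.1 and 18.9 CPM (17 and 19 UMIs, ratio 2.29, 1.12 to 4.64), and Maf at 22.8 and 20.8 CPM (9 and 21 UMIs, 1.13, 0.441 to 2.49). The interval of the Pparg ratio lay below that of the steady state and the interval of the Maf ratio above it. Fabp4 and Cd36 were again at least 2-fold higher in the non-classical cluster, at 159.6 CPM against 0 UMIs for Fabp4 and 152 against 3.97 CPM for Cd36.

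The antibody tag for Ly6C orders the bundle cells without the numbered clusters. The bundle was itself selected by RNA clusters and also holds progenitor DCs, so the bins mix kinds of cell. When the steady-state bundle was cut into 4 equal bins by its Ly6C tag count (3 to 53, 54 to 488, 488 to 1059 and 1060 to 23466), Nr4a1 was 782, 759.6, 552 and 379.8 CPM from the lowest to the highest bin. Pparg was 72.8, 35.1, 8.88 and 5.72 CPM, while Cebpa was 37.0, 63.9, 117 and 129 CPM and Maf 11.1, 19.4, 53.0 and 64.1 CPM. The outer bins did not overlap for any of the 4 genes, whereas neighbouring bins did in part. Within the classical cluster Nr4a1 was 873, 593, 601 and 510 CPM, so the bin with least Ly6C stood above the rest. Within the non-classical cluster Nr4a1 was 1383, 1485, 1520 and 1250 CPM, without that order, and Pparg 182, 151, 136 and 91.5 CPM. In the GM-conditioned bundle Nr4a1 was 69.0, 43.8, 53.7 and 70.3 CPM and showed no such order, while Maf was 4.92, 3.83, 7.53 and 20.9 CPM.

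**Figure D3:**
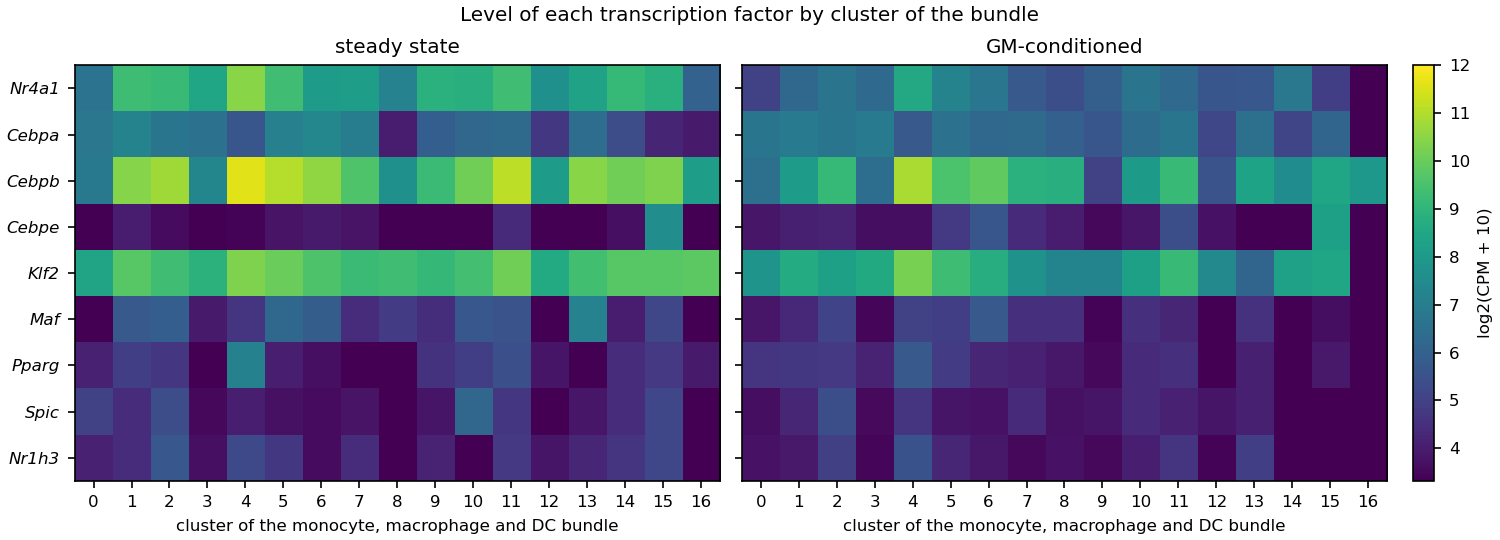
Level of each factor as log2(CPM + 10), in shades, by cluster of the MoMacDC bundle, for the steady-state (left) and the GM-conditioned library (right). Pparg is at its highest in cluster 4 of the steady state (131 CPM) and Cebpe in cluster 15 of the GM-conditioned library (298 CPM).

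Within the bundle Pparg, Nr4a1, Maf and Cebpe each had a cluster that held more of the factor's UMIs than of all UMIs. These clusters were picked once the data had been seen, and such shares were not taken for Cebpb, Klf2 and Cebpa. Cluster 4 held 64.8% of the steady-state Pparg UMIs of the bundle and 5.92% of those of the GM-conditioned library, and 30.2% and 9.10% of the Nr4a1 UMIs, with 12.97% and 1.457% of the UMIs of all genes in the bundle. Cluster 5 held 37.7% and 7.72% of the Maf UMIs with 22.8% and 3.72% of all bundle UMIs. Cluster 15 held 30.9% and 36.3% of the Cebpe UMIs with 0.776% and 1.45% of all bundle UMIs.

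The comparison of the GM-conditioned with the steady-state library asks how GM-CSF relates to the factors. Over the whole bundle 6 of the 9 were at least 2-fold lower in the GM-conditioned library and 1 was at least 2-fold higher, where 9.46% of 10860 tested genes were lower and 8.66% higher, and the median ratio of all tested genes was 0.959. Nr4a1 stood at 596 CPM in the steady state and 59.2 CPM in the GM-conditioned library, a ratio of 0.0994 (0.0942 to 0.105). Cebpb stood at 1711 and 318 CPM (0.186), Klf2 at 861 and 293 CPM (0.340), Maf at 40.1 and 10.0 CPM (0.251), Pparg at 26.2 and 10.6 CPM (0.404) and Nr1h3 at 17.1 and 5.13 CPM (0.301). Cebpa (92.6 and 79.7 CPM, ratio 0.861) and Spic (9.43 and 7.16 CPM, 0.759) stayed within 2-fold. Cebpe was the exception, at 4.55 and 11.9 CPM (2.60, 2.01 to 3.45), and at 3.17 and 7.68 CPM (2.40) without cluster 15, an alternative added once the data had been seen.

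These bundle values mix cells of different kinds, since the share of cells in each cluster also differed between libraries. Cluster by cluster, Nr4a1 was lower in the GM-conditioned library in 15 of 15 clusters compared, with ratios from 0.0478 to 0.353, Klf2 in 15 of 15 (0.0979 to 0.936) and Cebpb in 14 of 15. Maf was lower in 12 of 15 clusters, 7 of them with an interval below 1, and Nr1h3 in 11, 4 of them with such an interval. Pparg had no common direction: it was lower in 7 of 15, with 3 intervals below 1 and 3 above 1 and ratios from 0.0542 to 12.2. Within the non-classical cluster Nr4a1 was 1390 and 370 CPM, Klf2 1276 and 1194 CPM and Pparg 131 and 43.1 CPM. In the other bundle lists 4 of 6 other KLF genes, 1 of 7 other nuclear receptors and 3 of 11 PPAR and LXR targets were at least 2-fold lower. Among the targets were Fabp4 (97.4 and 3.36 CPM) and Apoe (1484 and 26.7 CPM), while Fabp5 was higher (63.3 and 281 CPM). Vdr, the vitamin D receptor, was the 1 nuclear receptor that was higher (0.869 and 3.54 CPM).

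Outside the bundle Nr4a1 was lower as well, in all 12 cell types, with ratios from 0.0242 to 0.591 and every interval below 1. It stood at 331 and 27.9 CPM in B cell (290 and 7 UMIs), at 73.3 and 9.12 CPM in Neutrophil and at 174 and 103 CPM in Granulocyte. Cebpb was lower in 10 of 12 cell types, but stood at 389.5 and 394 CPM in Neutrophil and at 229 and 472 CPM in MoMacDC_c4. Klf2 was lower in 9 of 12 and higher beyond counting error in Neutrophil (241 and 344 CPM) and Granulocyte (1568 and 1828 CPM). The direction of the other factors was less uniform, with Cebpa higher in Granulocyte (18.8 and 43.1 CPM, ratio 2.29, 1.68 to 3.16) and Cebpe higher there 2.84-fold (2.24 to 3.64). Maf in T cells stood at 46.8 and 144 CPM from 34 and 14 UMIs.

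By count, 2 of 5 tested factors were at least 2-fold higher in Granulocyte, where 7.29% of all tested genes were. In Neutrophil 1 of 5 was at least 2-fold lower, where 2.48% were, and in B cell 2 of 3 (Nr4a1 and Cebpb), where 13.8% were. The B cells also carried neutrophil transcripts: S100a8 stood at 1295 CPM in the steady state and 323 CPM in the GM-conditioned library. Without the called doublets, an alternative added once the data had been seen, S100a8 was 495 and 94.2 CPM, Nr4a1 313 and 17.1 CPM (ratio 0.0614, 0.0148 to 0.142), Cebpb 644 and 42.8 CPM and Klf2 1377 and 933 CPM. In T cell, all cells kept, S100a8 stood at 963 CPM in the steady state and 134 CPM in the GM-conditioned library. Lyz2, another myeloid gene, stood there at 995 and 30.9 CPM. In cDC2-A S100a8 went the other way, at 475 and 4862 CPM. The part of RNA from other cells in the values of these cell types was not tested.

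Nr4a1 is also an immediate early gene, one of a class that is switched on within minutes of a stimulus, cell handling included. A list of 12 others (Nr4a2, Nr4a3, Fos, Fosb, Jun, Junb, Jund, Egr1, Ier2, Dusp1, Zfp36 and Atf3) was lower in the GM-conditioned library too: in the bundle 9 of 12 were at least 2-fold lower and 0 higher, with a median ratio of 0.359 and summed levels of 7236 and 2719 CPM. In B cell 8 of 10 tested were lower (median 0.293), in Granulocyte 4 of 10 (0.520) and in Neutrophil 3 of 7 (0.743). The summed ratio ran from 0.172 in Activated DC to 0.708 in cDC2-A, so it was below 1 in all 12 cell types. The part of this list's difference in that of Nr4a1 was not tested.

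**Figure D4:**
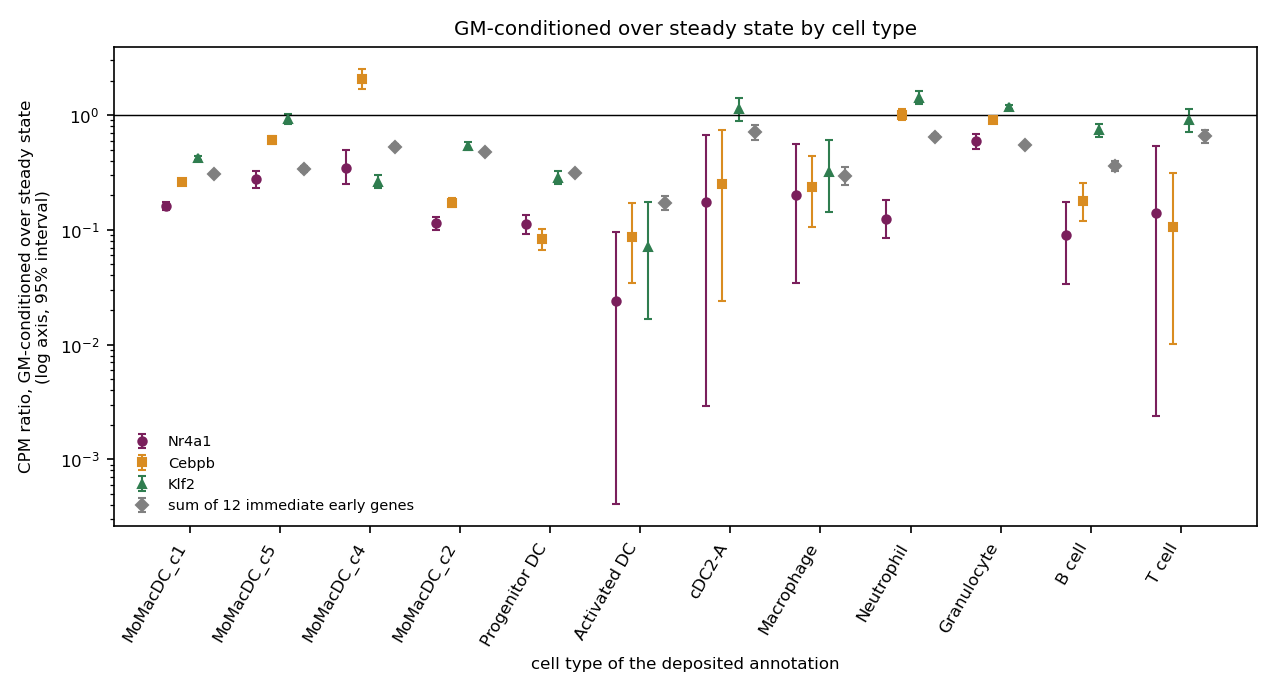
CPM ratio, GM-conditioned over steady state, by cell type, for Nr4a1, Cebpb, Klf2 and the sum of 12 immediate early genes, on a log axis with 95% counting intervals. Nr4a1 lies below 1 in all 12 cell types, and Cebpb (2.05 in MoMacDC_c4) and Klf2 (1.42 in Neutrophil) cross it.

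The deposited gates divide bundle cells by antibody tags and not by the numbered clusters, although the bundle itself was selected by RNA clusters. P-I is the gate of classical monocytes, P-II of non-classical monocytes, P-III of precursors of the GM-CSF-induced DCs (pre-GMiDCs) and P-IV of the CD301b+ GM-CSF-induced DCs (GMiDCs). P-I cells numbered 139 in the steady state against 187 in the GM-conditioned library, at medians of 7264 and 7232 UMIs. In P-I Nr4a1 stood at 400 and 73.1 CPM (ratio 0.184, 0.146 to 0.227), Cebpb at 1636 and 560 CPM (0.342), Klf2 at 763 and 274 CPM (0.359) and Nr1h3 at 33.0 and 12.9 CPM (0.397, 36 and 18 UMIs). These 4 of 6 tested factors were at least 2-fold lower and 0 were higher, where 7.12% of 5774 tested genes were lower and 4.99% higher. The Nr1h3 ratio became 0.617 after thinning (0.120 to 2.80, 4 and 5 UMIs), and with bundle cluster 5 in place of P-I the Klf2 ratio was 0.608, so neither was then past 2-fold.

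Cebpa stood at 119 and 86.8 CPM in P-I (0.730), Maf at 39.3 and 21.5 CPM (0.549, 43 and 30 UMIs), Pparg at 12.8 and 18.6 CPM and Spic at 12.8 and 11.5 CPM. Cebpe had 1 UMI in the steady state against 20 in the GM-conditioned library, a ratio of 10.7 with an interval of 2.51 to 649.5. The immediate early list had 8 of 10 tested genes at least 2-fold lower here (median 0.337), and the summed level was 4202 and 1517 CPM. The marker genes of the gate differed as well, with 6 of 8 classical monocyte markers and 8 of 8 tested non-classical markers at least 2-fold lower, and all 4 proliferation genes higher. P-I cells also came from different bundle clusters: cluster 2 gave 44 of the 139 and 53 of the 187, cluster 5 gave 30 and 15, and cluster 7 gave 2 and 30. Cluster 11, among whose differential genes the study lists S100a8 and S100a9, gave 18 and 12.

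Within the GM-conditioned library P-I, P-III and P-IV were 187, 126 and 313 cells. Nr4a1 stood at 73.1, 55.4 and 19.6 CPM in this order, Cebpb at 560, 326 and 106 CPM and Klf2 at 274, 316 and 178 CPM. Cebpa, at 86.8, 132 and 81.8 CPM, was highest in P-III. P-IV against P-I gave ratios of 0.269 (0.184 to 0.385) for Nr4a1, 0.190 (0.164 to 0.220) for Cebpb, 0.648 (0.562 to 0.748) for Klf2 and 0.942 (0.746 to 1.20) for Cebpa. Nr4a1 and Cebpb were thus the 2 of 5 tested factors at least 2-fold lower and 0 were higher, where 3.53% of 6803 tested genes were lower and 3.63% higher. Pparg stood at 11.6 against 18.6 CPM (0.620, 0.346 to 1.11), and this ratio was 1.29 (0.241 to 15.4) after thinning, from 5 and 2 UMIs. Spic (2 and 16 UMIs), Maf (10 and 30), Nr1h3 (7 and 18) and Cebpe (5 and 20) had fewer UMIs than the minimum, and all were lower in P-IV.

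Of 10 tested immediate early genes, 2 were at least 2-fold higher in P-IV (Fosb 3.25 and Jun 2.02) and 0 at least 2-fold lower, with a median ratio of 1.52. Fos was lower by less than 2-fold (0.573, 0.443 to 0.740). Cd36, one of the PPAR targets, was higher in P-IV (3.89) and Fabp5 lower (0.331). Granule genes known as targets of C/EBP-epsilon were at least 2-fold lower in 7 of 8 tested, and mature neutrophil markers in 7 of 7, at a summed 201 CPM in P-IV and 3618 CPM in P-I. Those markers were present in P-I of both libraries, and the part of neutrophil RNA in the P-I values was not tested.

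**Figure D5:**
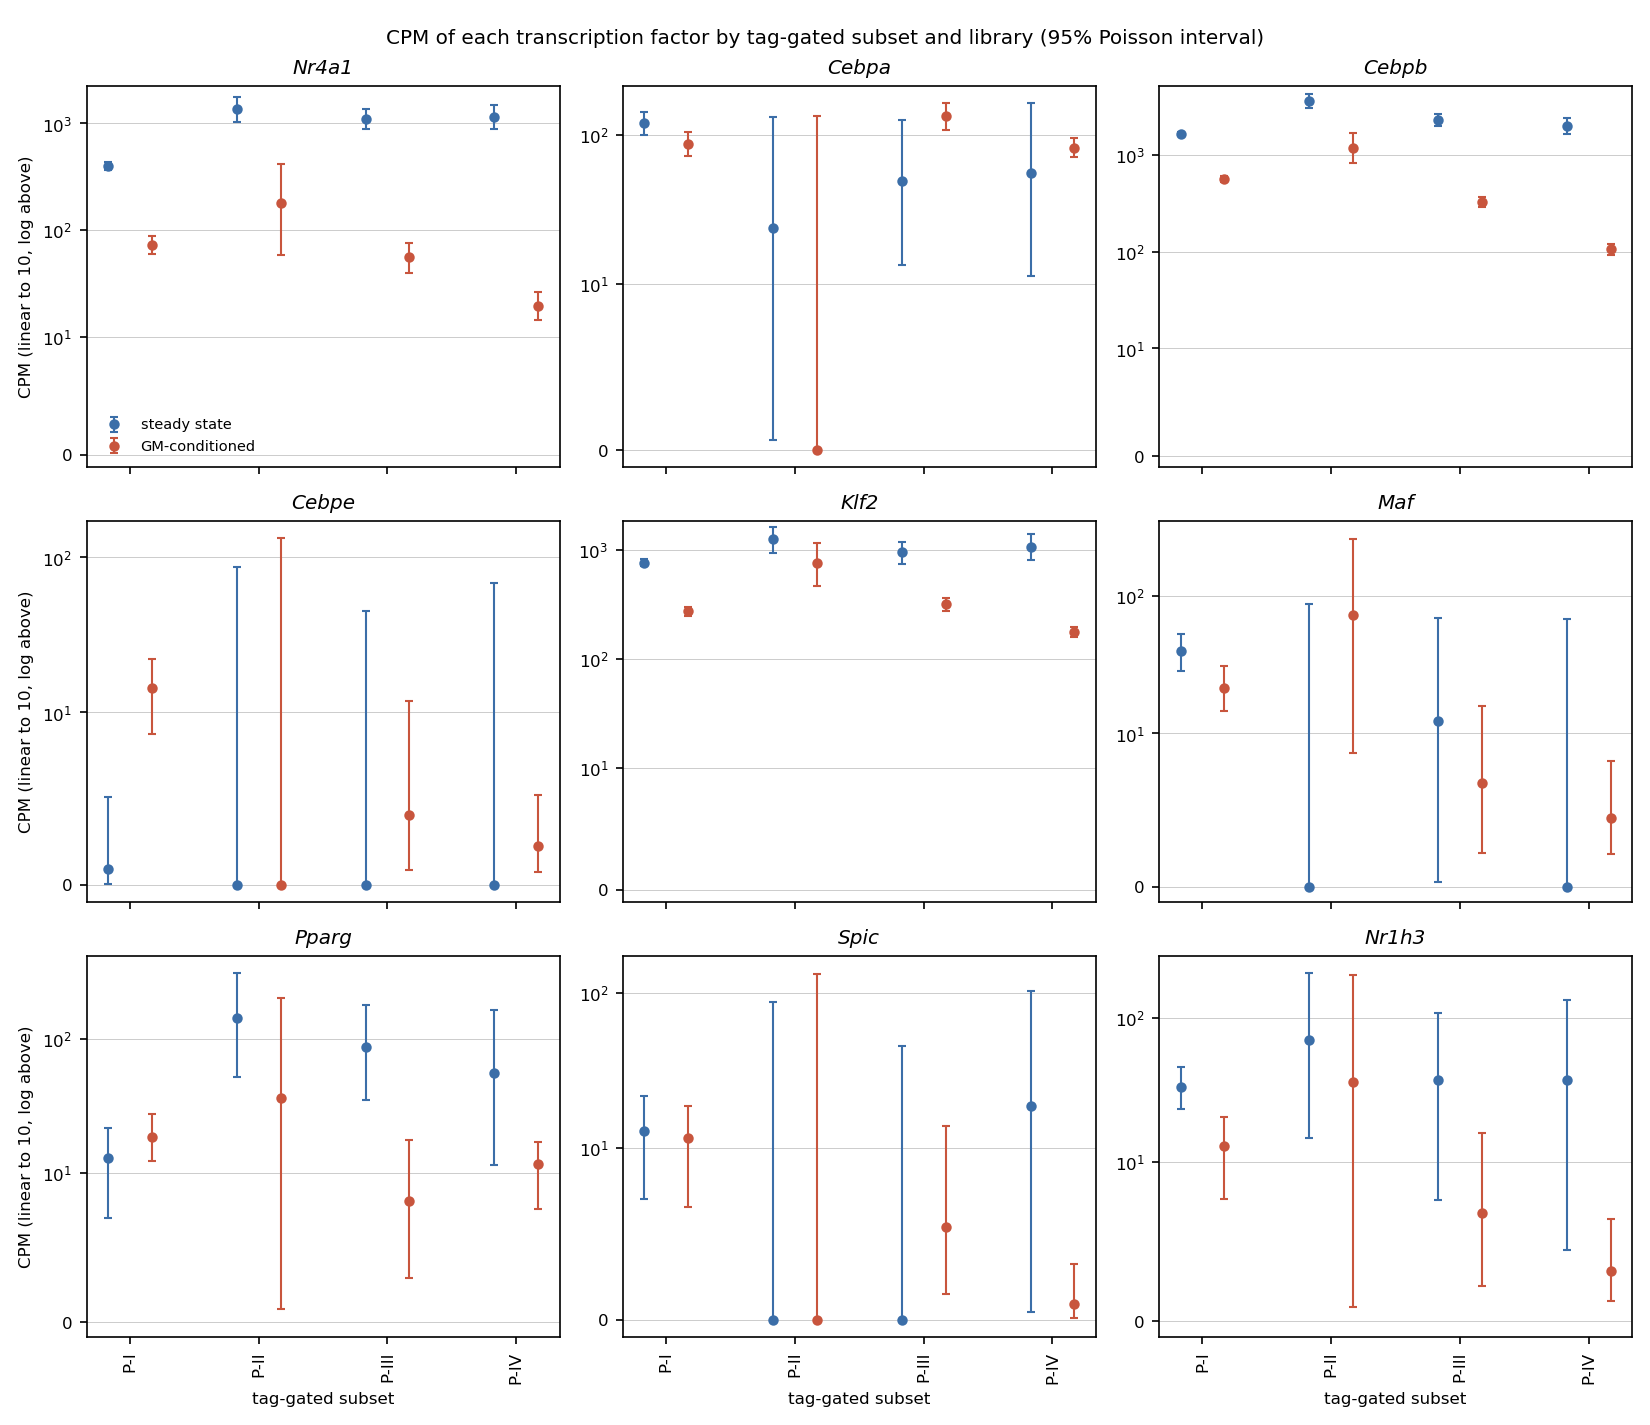
CPM of each factor in the gates P-I to P-IV with 95% counting intervals, for the steady-state and the GM-conditioned library; the axis is linear to 10 CPM and logarithmic above. Nr4a1 and Cebpb step down from P-I over P-III to P-IV in the GM-conditioned library. Its P-II gate, of only 8 cells, stands above P-I, at 179.9 CPM for Nr4a1 (5 UMIs) and 1187 CPM for Cebpb (33 UMIs). The Nr4a1 intervals of P-I and P-II overlap. The steady-state gates P-II, P-III and P-IV hold only 8, 12 and 7 cells.

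In the steady state the gates other than P-I were nearly empty. P-II held 8 cells, 7 of them of the non-classical cluster, with Nr4a1 at 1366 CPM against 400 CPM in P-I (ratio 3.44, 2.55 to 4.50) and Pparg at 141 CPM from 6 UMIs. P-III held 12 cells, of which 9 belonged to the non-classical cluster, and Nr4a1 stood there at 1107 CPM (891 to 1361) and Pparg at 86.1 CPM from 7 UMIs. P-IV held 7 cells, 3 of them of the non-classical cluster, with Nr4a1 at 1162 CPM. The gates P-III and P-IV therefore held other cells in the steady state than in the GM-conditioned library, where 6 of 126 P-III cells and none of the 313 P-IV cells belonged to the non-classical cluster.

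Across the 23 groups of cell type and library with at least 20 cells, the profile of each factor was set against those of 9751 genes by Pearson's r of log2(CPM + 10). The groups share 2 libraries, and the values are descriptions. Nr1h3 and Spic were close to each other (r = 0.967), and the genes nearest to Spic were Hebp1 (0.983), C1qb (0.976) and C1qa (0.975). Both factors were far higher in the macrophages of both libraries than in the bundle, so these r values rest largely on the macrophage groups. Pparg was nearest to Lilra5 (0.931), Epha4 (0.909) and Adgre4 (0.894), and Cebpe to Dach1 (0.967), 5430421N21Rik (0.964) and Wipi1 (0.954). Nr4a1 was nearest to Ly6i (0.879), Eif4g3 (0.875) and Tmed5 (0.866), with Cebpb the closest of the other factors (0.768). Cebpb was nearest to Tlr13 (0.916), Nfe2l2 (0.916) and Herc4 (0.911), and Klf2 to Rasa3 (0.941), Nufip2 (0.929) and Nedd9 (0.867). Cebpa was nearest to P2ry6 (0.822), Lgals3 (0.817) and 0610040J01Rik (0.814), and Maf to Pld3 (0.919), Tmem65 (0.875) and Glul (0.865).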

How the data were processed

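CD11b+ splenocytes were profiled on a Chromium Single Cell 3' v3 kit. The authors aligned reads with Cell Ranger 3.0.2 to mm10, removed cells outside 200 to 5000 genes or above 15% of mitochondrial UMIs, integrated both libraries and clustered them in Seurat (3.6.0 in the submitters' processing notes). The deposited tables hold raw counts (UMIs per gene, and antibody tag counts) with cell types, clusters and gates P-I to P-IV, which were used as deposited. The deposited percent values (mitochondrial share per cell) were used only to leave out cells over 10% in an alternative. Whether doublets had been removed is not given in the sources used here; they were kept.

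UMIs were summed per group. CPM have exact Poisson intervals, shares of cells or UMIs Clopper-Pearson intervals, and ratios (0.5 counts added to each sum) exact conditional binomial intervals, all at 95%. A gene counted as past the threshold when the ratio was at least 2-fold either way and both groups together had at least 50 UMIs. No p-value was computed. Where a group had 0 UMIs, 3 counts were taken as its limit. Cells were thinned to 1000 UMIs (616 cells had fewer). Scripts ran on Python 3.11.15, numpy 2.4.6, scipy 1.17.1, pandas 2.3.3 and scanpy 1.11.5 and were tested on simulated data. Alternatives were no minimum of UMIs, thinning, other cluster choices, a lower mitochondrial limit and called doublets left out (Scrublet, 152 and 186 cells).

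The 9 genes and all gene lists were chosen with earlier results of these data known, so no list supports its own direction. All 9 factors are named; for each, the 3 genes with the highest r among those with at least 200 UMIs were also named, and list genes past 2-fold. Cebpd, Trac and Trbc2 were not analysed here. The list of other MAF genes is not reported here.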

Additional observations from a re-analysis of the deposited data

Results flagged for a closer look

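Cell types differed in direction for 4 flagged factors between the GM-conditioned and the steady-state library. Maf, which was not flagged, also had 3 intervals below 1 and 1 above 1 over the cell types (ratios from 0.0442 to 3.14). None of these differences between cell types was tested, since each condition is 1 library. The Cebpa ratio was 10.3 in MoMacDC_c4 (3.54 to 107, from 2 steady-state UMIs) and 0.787 in MoMacDC_c1. The Cebpb ratio was 2.05 in MoMacDC_c4 and 0.0828 in Progenitor DC. The Klf2 ratio was 1.42 in Neutrophil and 0.071 in Activated DC, which were 8 and 20 cells. The Pparg ratio was 1.99 in MoMacDC_c2 (9 and 110 UMIs) and 0.391 in MoMacDC_c5 (274 and 19 UMIs).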

How the results depend on the processing

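The count of 4 factors past 2-fold between the non-classical and the classical cluster in the steady state, and the counts of 4 in P-I and 7 in the bundle between libraries, stayed within 1.5 times under every alternative run. The count of 2 between these clusters in the GM-conditioned library became 6 with no minimum of UMIs, 4 with clusters 5 and 6 as classical, 6 with clusters 2, 5 and 6 as classical, 4 for P-II against P-I and 6 for the whole-library clusters 5 against 1. The count of 2 for P-IV against P-I became 1 after thinning and 6 with no minimum. The macrophage share of Spic UMIs (33.5%) was 45.3% after thinning, 26.2% without cells over 10% mitochondrial UMIs, 12.7% as a share of positive cells, and 41.9% and 25% in the steady-state and GM-conditioned library alone. The neutrophil share of Cebpe UMIs (85.1%) was 73.1% after thinning, 88.2% without called doublets, 59.9% as a share of positive cells, and 75.8% and 86.8% in each library alone. The cause of these shifts was not tested. Of 286 alternative values of single ratios, 237 stayed within their counting interval and 49 moved further. None of the ratios past 2-fold crossed 1, but 3 others did in at least 1 alternative: Spic in the bundle (1.11 after thinning), and Pparg (1.29 after thinning) and Cebpa (1.07 as a mean over cells) for P-IV against P-I.

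Depth limited Spic, Nr1h3, Cebpe and Maf within the small gates, where 1 UMI shifts a level widely. No paired analysis was possible because the groups compared share only replicate number 1.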

Other observations

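By the deposited cell-cycle phase, bundle cells of the steady state held Nr4a1 at 647 CPM in G1, 513 CPM in S and 245 CPM in G2M, and those of the GM-conditioned library at 67.7, 62.2 and 37.4 CPM. Cebpb stood at 1819, 1568 and 891 CPM in this order in the steady state, and at 285, 322 and 395 CPM in the GM-conditioned library. The order of Cebpb over the phases was thus opposite in the libraries, while Nr4a1 was lowest in G2M in both. Phase was called from the same RNA counts, the share of each cluster in a phase differs between libraries, and the difference was not tested.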
